A study of Homo sapiens with 9 samples.

Results

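Replated THP-1 cells were compared with frozen THP-1 cells across all transcripts measured on an Illumina bead array. THP-1 cells come from a human monocytic leukemia, grow in suspension like immature monocytes and can be driven toward macrophages. The series holds 9 arrays of this line in 3 states, replated, frozen and fresh, with 3 biological replicates each per the design text, and its title names liquid nitrogen stocks as the source of RNA. The 3 replated and 3 frozen arrays are the 6 of 9 compared here, and the fresh arrays share the fit and stand beside them as context. The labels describe no drug, genetic change, passage number, freezing medium, thawing step or culture time for any state, and all 3 states are 1 cell line, so nothing here extends to other cells. How the replicates were separated is not described, and if they came from a shared culture the p-values measure only the spread between those samples. In such bulk RNA, fewer cells expressing a gene and less of its RNA per cell cannot be told apart.

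A probe entered the comparison when its detection score, which rises with the signal of a probe relative to negative controls, exceeded 0.95 on at least 3 of the 6 arrays. Of 48803 probes, 17361 met this rule, and 13894 of them carried 1 gene symbol and stood for 10657 genes. Of the probes left out, 28519 were detected on none of the 6 arrays, 1930 on 1 and 993 on 2. Of those just inside the rule, 821 were detected on exactly 3 arrays. Between 16960 and 17278 probes were detected on the replated arrays, 17322 to 17478 on the frozen arrays and 16898 to 17679 on the fresh arrays. Mean raw signal was 336 to 357 intensity units on replated, 299.6 to 362.9 on frozen and 341 to 367 on fresh arrays. With 3 arrays a state, the number of arrays limits the precision.

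Immediate early genes are transcribed within minutes of a stimulus because their promoters are already bound by factors such as CREB and SRF, which signalling kinases activate. Their products include the AP-1 subunits, the EGR and NR4A transcription factors and phosphatases that switch the kinases off again, and their messages are short-lived. In monocytes the same stimuli induce NF-kB targets such as TNF and chemokines. Monocytes that become macrophages raise phagocyte, antigen presentation, lipid handling and cytoskeletal genes over a longer time.

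The labelled cell line was checked against its markers. Of 15 markers of a monocytic leukemia line, 13 were on the array and 12 of these, including LYZ, CD14, MPO and SPI1, were detected on all 9 arrays. MEIS1 was the marker detected on none. Of 24 markers of other blood and tissue cell types, 22 were on the array and 15 were detected on no array, among them CD3D, CD3E, HBB, PF4, EPCAM, COL1A1 and VWF. The summed signal of the 5 that entered the comparison, the B cell genes MS4A1, CD79A and CD79B, the killer cell gene NKG7 and the endothelial and leukocyte gene PECAM1, was 1700 to 1882 on replated arrays, 1399 to 1526 on frozen arrays and 1534 to 1564 on fresh arrays. Of these, CD79B (0.44), NKG7 (0.39) and PECAM1 (0.26) rose in log2 terms and MS4A1 and CD79A did not pass. PECAM1 lost its call without any array but replated replicate 2.

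Replated and frozen arrays lay further apart than replicates of either state. Distance was measured as the root mean square difference in normalized log2 level over all kept probes. Between a replated and a frozen array it averaged 0.282 (0.269 to 0.289, 9 pairs), against 0.183 within replated and 0.201 within frozen cells (3 pairs each). Pairs of replated and fresh arrays averaged 0.236, as did pairs of frozen and fresh arrays at 0.237. Mean distance between replated and frozen arrays exceeded that within them by 0.0907, which none of the other 9 splits of the 6 arrays reached (exact permutation test over 10 distinct splits, one-sided for a larger distance, p = 0.1, the smallest this design allows). The test therefore could not pass 0.05.

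Of the 17361 probes, 2189 (12.6%) were called, which here means an adjusted p under 0.05 in limma's moderated test with Benjamini-Hochberg adjustment over all probes kept. They comprised 1178 that were higher (6.79%) and 1011 that were lower (5.82%) in replated cells, and 5182 had an unadjusted p under 0.05. Without replated replicates 1, 2 and 3 the count was 1335, 1436 and 1078, and without frozen replicates 2 and 3 it was 1246 and 1293. The split moved with the scaling: 2089 were higher and 379 lower when arrays were centred on their medians in place of quantile normalization, which moved the median difference over all probes to 0.08, against -0.01. With each gene represented by its brightest kept probe, 1391 of 10657 genes (13.1%) passed, of which 759 were higher (7.12%) and 632 lower (5.93%). The arrays of replated cells all lay above those of frozen cells for 1887 genes (17.7%) and all below for 1996 (18.7%), called or not.

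Most called differences were under 1.5-fold, and more called genes passed 2-fold downward than upward. The median size among called genes was 0.39 for increases and 0.36 for decreases on the log2 scale. In replated cells 9 called genes were at least 2-fold higher and 28 at least 2-fold lower, while 81 and 85 passed 1.5-fold. Of the 15101 probes detected on all 6 arrays 1996 were called, and of the 821 detected on exactly 3 arrays 83 were called. Of those 83, 39 were detected on all 3 replated arrays and no frozen array. The other 44 were detected on all 3 frozen arrays and no replated array. All 83 thus met the detection rule only through the state where they were high, so their calls are no independent check. In 4 equal bins of mean signal from dim to bright, 8.02%, 14.8%, 14.9% and 12.8% of probes were called. Signal carries an offset before logs are taken, so the log2 scale understates the change of dim probes.

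**Figure D1:**
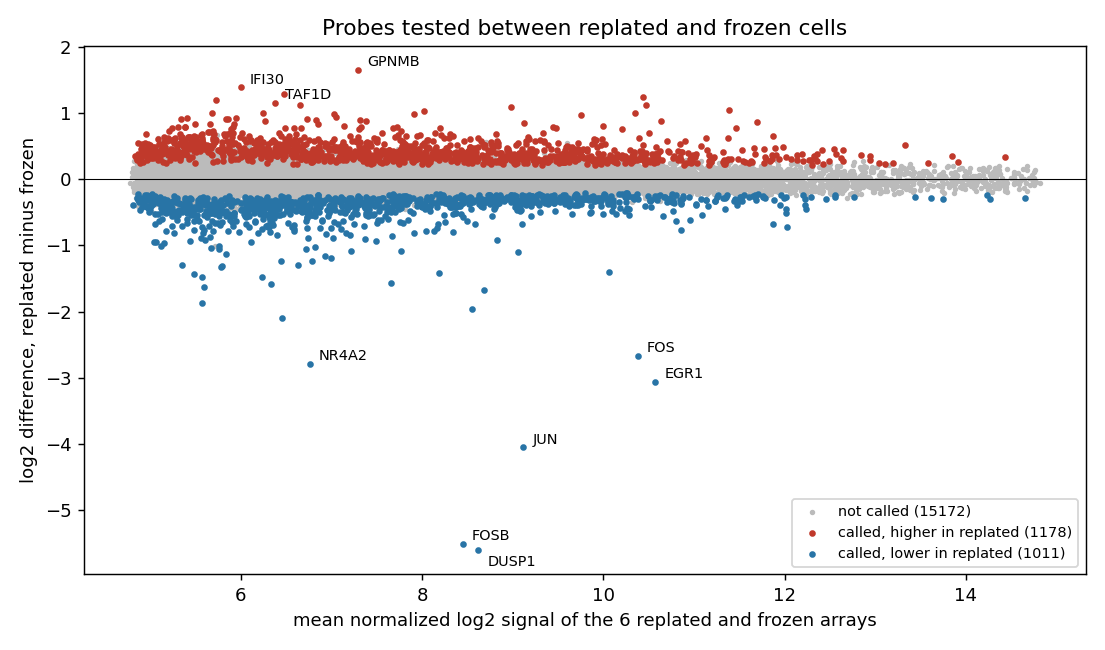
Each point is 1 of 17361 probes, with its mean normalized log2 signal over the 6 replated and frozen arrays on the horizontal axis and its log2 difference, replated minus frozen, on the vertical axis. Red points were called higher in replated cells (1178), blue points were called lower (1011) and grey points were not called, and DUSP1, FOSB, JUN, EGR1, NR4A2 and FOS lie far below the rest.

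Immediate early genes led the decreases, with the MAP kinase phosphatase gene DUSP1, the AP-1 genes FOSB, JUN and FOS, and the transcription factor genes EGR1 and NR4A2 between 6.38-fold and 48.8-fold lower in replated than in frozen cells. Of 8 AP-1 genes 6 fell, of 3 EGR and NR4A genes 2 fell, of 7 dual-specificity phosphatase genes 4 fell, and of 23 other immediate early genes 13 fell and 2 rose. The median log2 difference of these lists was -1.25, -2.79, -0.41 and -0.46, against -0.00475 over all genes. For every list count here and below, the shares over all genes were 7.12% called higher and 5.93% called lower. In these and later sentences ± gives the standard error that limma assigns to a log2 difference with 3 arrays per state, adjusted p is the Benjamini-Hochberg adjusted p from limma over all probes kept, levels are normalized log2 signals of replicates 1, 2 and 3, and where a gene is said to have risen or fallen its replated and frozen arrays had no overlap unless stated.

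DUSP1, a phosphatase that inactivates MAP kinases in the nucleus (probe ILMN_1781285), had 5.94, 5.64 and 5.87 in replated cells, against 11.47, 11.34 and 11.46 in frozen cells and 7.49, 7.74 and 7.85 in fresh cells. Its frozen arrays were uniformly high and its replated arrays uniformly low, with the fresh arrays between them. DUSP1 fell 48.8-fold in replated cells (log2 difference -5.61 ± 0.11, adjusted p = 6.73e-10). Among its relatives, DUSP5 fell 1.61-fold (log2 difference -0.68 ± 0.094, adjusted p = 0.00216), DUSP2 fell 1.47-fold (log2 difference -0.56 ± 0.10, adjusted p = 0.00778) and DUSP10 fell 1.33-fold (log2 difference -0.41 ± 0.071, adjusted p = 0.00579). The DUSP10 call was lost under median centring, which left 3 of 7 fallen. DUSP6, DUSP7 and DUSP8 differed by -0.03, -0.01 and 0.31 and did not pass, and DUSP4 and DUSP16 did not meet the detection rule.

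FOSB, an AP-1 subunit of the FOS family (probe ILMN_1751607), had 5.71, 5.59 and 5.79 in replated cells, against 11.15, 11.15 and 11.30 in frozen cells and 7.32, 7.89 and 7.99 in fresh cells. JUN, the subunit that FOS proteins pair with (probe ILMN_1806023), had 6.94, 7.16 and 7.16 in replated cells, against 11.05, 11.13 and 11.24 in frozen cells and 7.69, 7.58 and 7.81 in fresh cells. FOS itself (probe ILMN_1669523) had 8.97, 9.20 and 8.96 in replated cells, against 11.61, 11.77 and 11.77 in frozen cells and 9.88, 10.15 and 10.23 in fresh cells. In each of these genes the frozen arrays were the highest of the series and the replated arrays the lowest, with the fresh arrays between them and no overlap among states. FOSB fell 45.5-fold (log2 difference -5.51 ± 0.15, adjusted p = 8.37e-09), JUN fell 16.6-fold (log2 difference -4.05 ± 0.090, adjusted p = 1.66e-09) and FOS fell 6.38-fold (log2 difference -2.67 ± 0.10, adjusted p = 1.96e-07). ATF3, a stress-induced partner of JUN, fell 2.79-fold (log2 difference -1.48 ± 0.12, adjusted p = 7.33e-05). Its levels were 5.33, 5.62 and 5.51 in replated cells, against 6.995, 7.19 and 6.72 in frozen cells and 5.31, 5.55 and 5.44 in fresh cells, so the replated arrays lay among the fresh ones. The other JUN family genes completed the list, with JUNB 2.03-fold lower (log2 difference -1.02 ± 0.13, adjusted p = 0.00128) and JUND 1.65-fold lower (log2 difference -0.72 ± 0.072, adjusted p = 0.000307). FOSL1 (-0.30) and BATF (0.05) did not pass and FOSL2 did not meet the detection rule. The 6 decreases were called whichever array was left out.

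EGR1, a zinc finger transcription factor (probe ILMN_1762899), had 9.07, 8.86 and 9.19 in replated cells, against 11.97, 12.33 and 12.03 in frozen cells and 11.10, 11.27 and 11.26 in fresh cells. NR4A2, an orphan nuclear receptor (probe ILMN_1782305), had 5.58, 5.22 and 5.30 in replated cells, against 8.12, 8.14 and 8.19 in frozen cells and 6.21, 6.23 and 6.27 in fresh cells. Fresh arrays lay between replated and frozen arrays for both genes. EGR1 fell 8.37-fold (log2 difference -3.07 ± 0.11, adjusted p = 1.24e-07) and NR4A2 fell 6.89-fold (log2 difference -2.79 ± 0.090, adjusted p = 4.38e-08). A further NR4A2 probe differed by -1.87 and was called as well. EGR3 differed by -0.20 and did not pass, and no probe of EGR2, EGR4, NR4A1 or NR4A3 met the detection rule. Without background correction the log2 differences were -4.82 for DUSP1, -4.67 for FOSB and -1.96 for NR4A2, so each of these folds was smaller by over 1.5 times.

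**Figure D2:**
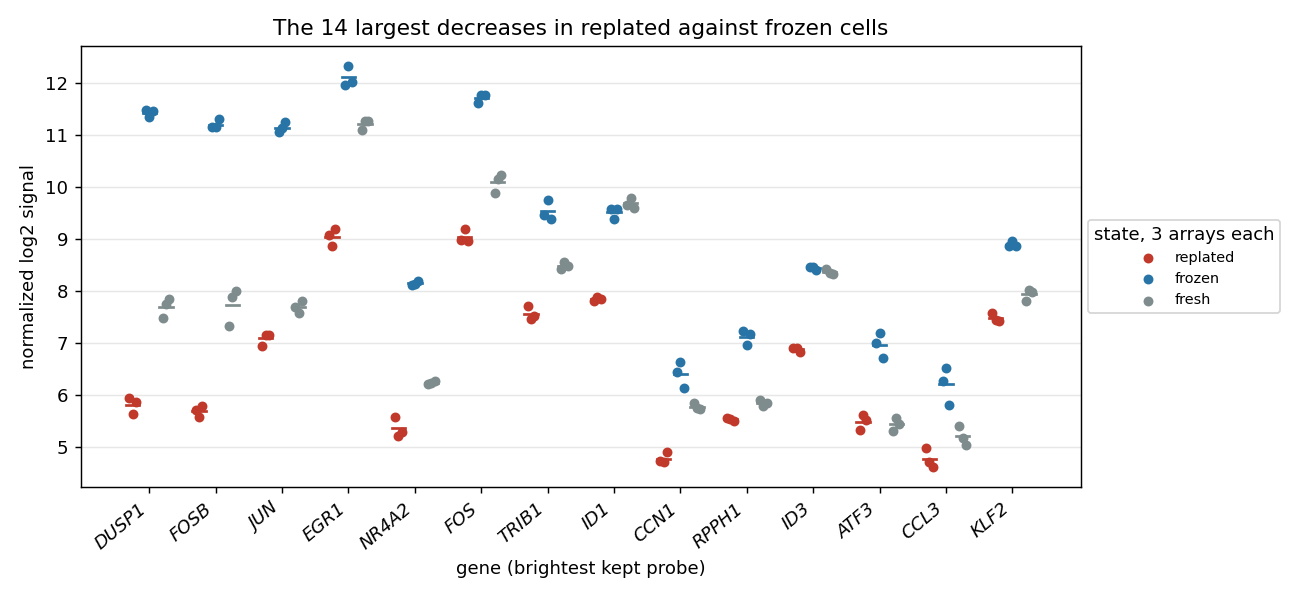
Normalized log2 signal of the 14 largest decreases among called genes whose replated and frozen arrays did not overlap. Replated, frozen and fresh arrays run from left to right within each gene, with 1 point per array and a bar at the mean of 3. Replated arrays sit below frozen arrays in every gene by that choice. Fresh arrays lie between them for most genes but beside the frozen arrays for ID1 and ID3.

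Promoters of the fallen genes are shown because CREB and SRF, the factors that hold immediate early promoters ready, bind known short sequences. The sequences are RefSeq's for GRCh38.p14, run from 250 bases before to 50 bases after the annotated start, and are written 5′ to 3′ on the gene's strand. Capitals mark the full cAMP response element TGACGTCA, its core TGACG on either strand (CGTCA on the other), and the CArG box, the SRF binding sequence. The core lies within the full element and full elements were counted apart from cores. A match is a description of the letters and not evidence of binding.
DUSP1: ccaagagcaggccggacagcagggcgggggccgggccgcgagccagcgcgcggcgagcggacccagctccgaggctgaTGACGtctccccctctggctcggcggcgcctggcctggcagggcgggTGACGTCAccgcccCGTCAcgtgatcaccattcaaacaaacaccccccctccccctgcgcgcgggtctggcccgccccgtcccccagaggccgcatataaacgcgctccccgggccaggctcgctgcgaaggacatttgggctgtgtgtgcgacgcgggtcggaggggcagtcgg
FOSB: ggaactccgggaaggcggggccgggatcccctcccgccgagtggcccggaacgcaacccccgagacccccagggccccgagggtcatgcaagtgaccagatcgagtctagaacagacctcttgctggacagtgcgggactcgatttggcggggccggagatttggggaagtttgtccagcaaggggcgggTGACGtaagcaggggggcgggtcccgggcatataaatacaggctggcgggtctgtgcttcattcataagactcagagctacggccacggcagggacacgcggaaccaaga
JUN: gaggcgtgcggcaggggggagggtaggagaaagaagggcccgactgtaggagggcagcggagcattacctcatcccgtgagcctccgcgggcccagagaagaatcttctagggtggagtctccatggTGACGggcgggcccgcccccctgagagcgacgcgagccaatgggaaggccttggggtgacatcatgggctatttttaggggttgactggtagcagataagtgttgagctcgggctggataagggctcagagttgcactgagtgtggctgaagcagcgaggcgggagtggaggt
EGR1: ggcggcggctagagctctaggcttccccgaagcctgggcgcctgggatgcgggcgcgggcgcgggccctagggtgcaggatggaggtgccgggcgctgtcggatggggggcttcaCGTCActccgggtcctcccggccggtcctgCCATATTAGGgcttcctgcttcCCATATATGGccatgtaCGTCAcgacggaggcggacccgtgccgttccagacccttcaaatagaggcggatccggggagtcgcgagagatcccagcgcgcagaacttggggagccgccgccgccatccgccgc
FOS: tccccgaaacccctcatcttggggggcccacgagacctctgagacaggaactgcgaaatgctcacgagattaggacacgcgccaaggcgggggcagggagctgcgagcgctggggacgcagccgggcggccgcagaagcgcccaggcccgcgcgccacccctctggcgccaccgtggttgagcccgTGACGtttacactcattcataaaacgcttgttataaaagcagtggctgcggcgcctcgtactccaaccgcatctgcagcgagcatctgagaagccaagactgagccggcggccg
ID1: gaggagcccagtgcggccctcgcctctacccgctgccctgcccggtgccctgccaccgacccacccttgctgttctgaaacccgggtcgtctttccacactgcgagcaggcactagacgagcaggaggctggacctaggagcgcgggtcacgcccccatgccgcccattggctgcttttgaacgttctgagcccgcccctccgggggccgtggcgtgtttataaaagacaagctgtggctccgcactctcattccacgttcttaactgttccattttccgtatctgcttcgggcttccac

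The DUSP1 window (chr5:172771146-172771445, minus strand) held 1 full element and 2 further cores. EGR1 (chr5:138465229-138465528, plus strand) held 2 cores and 2 CArG boxes. FOSB (chr19:45467746-45468045, plus strand), JUN (chr1:58783998-58784297, minus strand) and FOS (chr14:75278578-75278877, plus strand) held 1 core each. Sites more than 250 bases before the start were not searched, so a missing CArG box describes these windows only. ID1 (chr20:31605039-31605338, plus strand), the next largest decrease with a promoter sequence, held none of these letters. NR4A2 and TRIB1 fell further than ID1 but had no promoter sequence to show. Of the 28 genes at least 2-fold lower, 21 had a promoter in the table. The full element was in 2 of them (9.52%), against 3.34% of the 8777 promoters of tested genes. The core, alone or within a full element, was in 10 (47.6%), against 34.6% of all tested. The CArG box was in 2, EGR1 and ACTA1, or 9.52%, against 1.08%. Counts of 2 in 21 promoters leave these shares imprecise, and over the whole set of genes called lower the core was in 35.3% and the CArG box in 1.17%. Among promoters of genes called higher the core was in 31.9% and the CArG box in 2.07%, so the CArG box was not particular to the decreases.

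Other letters were searched on both strands of the same windows. The AP-1 element (TGANTCA) and the NF-kB element, searched by its consensus, were in 0 of the 21 promoters, against 4.20% and 6.39% of all tested. A count of 0 in 21 promoters is imprecise too. Over the whole set of genes called lower these elements were in 4.08% and 4.27%. The EGR element (GCGNGGGCG) was in 5 (23.8%), against 15.1%. Among the 627 promoters of genes called higher, the AP-1 element was in 5.58% and the NF-kB element in 6.86%. The E-box (CACGTG) was in 9.89% of promoters of genes called higher, 14.2% of those called lower and 10.6% of all tested. The lysosomal CLEAR element, an E-box with GT before and AC after it, was in 1.12%, 0.388% and 0.832% of these sets. The cell cycle CHR element (TTTGAA) was in 13.6% of promoters of genes called higher, 10.9% of those called lower and 10.4% of all tested, and the CCAAT box, searched by its own letters, was in 36.5%, 35.7% and 37.5%.

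The remaining immediate early genes included TRIB1, a pseudokinase that steers C/EBP alpha to degradation, which had 7.70, 7.46 and 7.53 in replated cells, against 9.45, 9.75 and 9.38 in frozen cells and 8.43, 8.55 and 8.47 in fresh cells. TRIB1 fell 3.9-fold (log2 difference -1.96 ± 0.10, adjusted p = 2.18e-06), with replated arrays lowest and frozen arrays highest. CCN1, a secreted matricellular protein gene, was detected on all 3 frozen arrays and no replated array. It was therefore at least 2.75-fold lower in replated cells (adjusted p = 2.24e-05), against the dimmest detected signal. Its measured log2 difference was -1.63, and -0.94 without background correction. KLF2, a zinc finger factor that restrains myeloid inflammation, fell 2.66-fold (log2 difference -1.41 ± 0.079, adjusted p = 4.05e-06). PPP1R15A, a phosphatase subunit that removes the phosphate from eIF2 alpha so that translation resumes, fell 2.64-fold (log2 difference -1.40 ± 0.080, adjusted p = 4.2e-06). Smaller decreases were those of IER2 (-1.13), KLF6 (-1.10), CSRNP1 (-0.79), the kinase gene SGK1 (-0.78), KLF4 (-0.67), KLF10 (-0.64), ZFP36, which destabilises TNF message (-0.61), GADD45B (-0.46), whose arrays overlapped, and the anti-apoptotic gene MCL1 (-0.26), all log2 differences. MAFF (0.33) and BTG1 (0.39) rose. The count of decreases was 11 to 13 and that of increases 1 or 2 when an array was left out, with 1 increase without fresh replicate 1, replated replicates 2 or 3, or frozen replicates 2 or 3. MYC differed by 0.27 ± 0.079 (adjusted p = 0.052) on its brightest probe and was called higher on its other probe (0.71, adjusted p = 0.00178). The brightest probe was itself called higher in 8 of 20 alternatives that changed the processing or left out an array. The MYC call therefore rested on the probe and on these choices.

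The ID genes, whose products block basic helix-loop-helix factors and mark immature cells, fell in all 3 members tested, with a median log2 difference of -1.56. ID1 (probe ILMN_1664861) had 7.80, 7.89 and 7.84 in replated cells, against 9.59, 9.38 and 9.58 in frozen cells and 9.66, 9.80 and 9.60 in fresh cells. Its frozen and fresh arrays lay close together and its replated arrays well below both. ID1 fell 3.18-fold (log2 difference -1.67 ± 0.081, adjusted p = 1.46e-06) and its other probe fell by 1.00 on the log2 scale. ID3 had 6.90, 6.91 and 6.82 in replated cells, against 8.46, 8.45 and 8.40 in frozen cells and 8.42, 8.35 and 8.32 in fresh cells and fell 2.95-fold (log2 difference -1.56 ± 0.064, adjusted p = 2.95e-07). ID2 fell 1.29-fold (log2 difference -0.37 ± 0.083, adjusted p = 0.0172), a call lost under median centring and without replated replicate 3 or frozen replicate 3. ID4 did not meet the detection rule.

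Of 17 NF-kB regulators and inflammatory mediators tested, 6 fell, 0 rose and 11 did not pass, with a median of -0.14. Over all genes 5.93% were called lower. CCL3, a chemokine gene, had 4.98, 4.71 and 4.62 in replated cells, against 6.27, 6.53 and 5.81 in frozen cells and 5.41, 5.16 and 5.04 in fresh cells, and its probe was detected on 1 of the 3 replated arrays. The measured levels of CCL3 differed 2.7-fold (log2 difference -1.43 ± 0.17, adjusted p = 0.000837), against a log2 difference of -0.82 with an offset of 50. CCL3L3, a near-identical copy whose probe may share transcripts with it, fell 2.08-fold (log2 difference -1.05 ± 0.16, adjusted p = 0.00373). TNF, the inflammatory cytokine gene, had 6.29, 6.29 and 5.92 in replated cells, against 7.53, 7.56 and 7.12 in frozen cells and 6.71, 7.13 and 6.82 in fresh cells and fell 2.35-fold (log2 difference -1.24 ± 0.15, adjusted p = 0.000961). PTGS2, which encodes cyclooxygenase-2, had 6.48, 6.41 and 6.29 in replated cells, against 7.59, 7.86 and 7.29 in frozen cells and 6.38, 6.48 and 6.57 in fresh cells and fell 2.28-fold (log2 difference -1.19 ± 0.13, adjusted p = 0.000452). Each frozen array of these genes lay above every replated array. CXCL8 (-0.67) and NFKBIA, the inhibitor of NF-kB (-0.63), fell too, while IL1B (-0.05), NFKB1 (-0.07), RELA (0.07) and TNFAIP3 (0.22) did not pass. Without fresh replicate 1 or fresh replicate 3, 1 member of the list rose. OSM, a cytokine of activated monocytes outside this list, fell 2.48-fold (log2 difference -1.31 ± 0.15, adjusted p = 0.000646).

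Of 30 monocyte and macrophage markers tested 12 rose and 0 fell in replated against frozen cells, with a median log2 difference of 0.19, and between 8 and 12 rose when an array was left out. Over all genes 7.12% were called higher. None of 12 immature myeloid genes was called in either direction (limma, median -0.09, and 0.00322 under median centring). Of the 12 line markers given above LYZ and FCGR1A rose, and their summed signal was 22840 to 23970 on replated, 19700 to 20910 on frozen and 20140 to 20900 on fresh arrays. That of the markers of other cell types was also highest on replated arrays, as given above, and the part of either in these counts was not tested.

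GPNMB, a transmembrane glycoprotein of macrophages (probe ILMN_1801205), had 8.30, 8.03 and 8.03 in replated cells, against 6.50, 6.58 and 6.33 in frozen cells and 6.36, 6.38 and 6.15 in fresh cells. Frozen and fresh arrays lay together and replated arrays stood above all 6 of them. GPNMB rose 3.14-fold (log2 difference 1.65 ± 0.10, adjusted p = 7.7e-06), and its other probe rose by 1.29 on the log2 scale. LYZ, which encodes lysozyme, had 12.17, 12.05 and 12.13 in replated cells, against 11.29, 11.24 and 11.25 in frozen cells and 11.31, 11.24 and 11.25 in fresh cells, the same arrangement at a high signal. LYZ rose 1.81-fold (log2 difference 0.86 ± 0.063, adjusted p = 2.95e-05). CCR2, the receptor that draws monocytes to the chemokine CCL2, had 10.32, 10.18 and 10.20 in replated cells, against 9.31, 9.29 and 9.21 in frozen cells and 9.80, 9.85 and 9.80 in fresh cells and rose 1.96-fold (log2 difference 0.97 ± 0.067, adjusted p = 2.1e-05). Here the fresh arrays lay between the other groups.

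CYBB, the electron-carrying core of the phagocyte NADPH oxidase, had 6.38, 6.12 and 6.19 in replated cells, against 5.44, 5.40 and 5.77 in frozen cells and 5.47, 5.71 and 5.60 in fresh cells and rose 1.62-fold (log2 difference 0.70 ± 0.11, adjusted p = 0.00434). Of the 5 oxidase genes tested, RAC2, its small GTPase, rose as well (0.35) and 3 did not pass, with a median of 0.02, and 1 fell without replated replicate 2. Besides GPNMB, LYZ, CCR2 and CYBB, the marker list rose in the calcium-binding genes S100A8 (0.55), S100A9 (0.37) and S100A4 (0.35), the integrin gene ITGAX (0.61), the scavenger receptor genes MARCO (0.50) and CD36 (0.31), the galectin gene LGALS3 (0.40) and the Fc receptor gene FCGR1A (0.25), in log2 differences. CD14 (-0.14 ± 0.071, adjusted p = 0.223), CSF1R (-0.00), CD68 (0.14), ITGAM (0.09), CD163 (0.07), APOE (-0.14) and TREM2 (-0.23) were among the 18 that did not pass. FCGR1A lost its call without any one of the 6 replated and frozen arrays, and ITGAX without replated replicates 2 or 3 or frozen replicates 1 or 2.

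Antigen presentation genes were counted for MHC class II and class I apart. IFI30, a lysosomal thiol reductase that unfolds antigens for MHC class II (probe ILMN_1807277), had 6.88, 6.69 and 6.51 in replated cells, against 5.51, 5.21 and 5.20 in frozen cells and 5.55, 5.43 and 5.90 in fresh cells. The replated arrays stood above the other 6 arrays. IFI30 rose 2.62-fold (log2 difference 1.39 ± 0.14, adjusted p = 0.000305). Of 7 MHC class II genes tested 5 rose and 0 fell, with a median of 0.35: IFI30, HLA-DRB1 (0.45), the invariant chain gene CD74 (0.42), HLA-DRA (0.35) and HLA-DMA (0.24). Only 3 rose without replated replicate 1, replated replicate 3 or frozen replicate 3. HLA-DPA1 (0.26) and HLA-DMB (-0.05) did not pass. Of 14 MHC class I and immunoproteasome genes 4 rose and 0 fell, namely HLA-E (0.55), HLA-B (0.31), PSME2 (0.31) and B2M (0.25), with a median of 0.14. That count was 1 without replated replicates 1 or 2 or frozen replicates 2 or 3, and 2 without fresh replicate 2, replated replicate 3 or frozen replicate 1. Because HLA genes are so alike, their probes may cross-react. CD1D, which presents lipid antigens, was in neither list, was looked up after its values were seen and fell 1.6-fold (log2 difference -0.68 ± 0.063, adjusted p = 0.000186).

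A list of vimentin, annexin, S100 and AHNAK genes also held the galectin genes LGALS1 and LGALS3, LMNA and TLN1. Of its 15 genes tested 11 rose and 0 fell, with a median of 0.40, and 8 to 11 rose when an array was left out. Over all genes 7.12% were called higher. VIM, the intermediate filament of mesenchymal and white blood cells (probe ILMN_1782538), had 11.96, 11.89 and 11.87 in replated cells, against 10.93, 10.89 and 10.76 in frozen cells and 10.86, 10.93 and 10.93 in fresh cells. Its replated arrays stood above frozen and fresh arrays, which lay together. VIM rose 2.07-fold (log2 difference 1.05 ± 0.070, adjusted p = 1.48e-05) and its other probe by 1.25 on the log2 scale. The giant scaffold genes AHNAK and AHNAK2 rose 2.01-fold (log2 difference 1.01 ± 0.071, adjusted p = 2.27e-05) and 2-fold (log2 difference 1.00 ± 0.16, adjusted p = 0.00396). Proteins that bind AHNAK at the membrane followed, with S100A10 1.72-fold higher (log2 difference 0.78 ± 0.064, adjusted p = 6.69e-05) and ANXA2 1.4-fold higher (log2 difference 0.49 ± 0.073, adjusted p = 0.00331). The other ANXA2 probes differed by 0.17 and 0.30 and did not pass, and the pseudogene ANXA2P1 (0.85), whose probes may bind ANXA2 transcripts, rose. The rest of the increases in this list were S100A6 (0.65), ANXA4 (0.56), LMNA (0.30), ANXA1 (0.29) and the S100A4 and LGALS3 given above. LGALS1, TLN1, S100A11 and ANXA5 differed by 0.08 to 0.17 and did not pass.

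Adhesion and actin genes held increases and decreases, beside 7.12% of all genes called higher and 5.93% called lower. Of 17 integrins and tetraspanins 4 rose and 1 fell, the highest being ITGB7, an integrin beta chain, with 8.06, 8.30 and 8.10 in replated cells, against 7.55, 7.41 and 7.54 in frozen cells and 7.45, 7.34 and 7.49 in fresh cells (log2 difference 0.65 ± 0.082, adjusted p = 0.00128). Its replated arrays were all above its frozen arrays. Without replated replicates 2 or 3 or frozen replicate 1, 2 of the 17 rose. The hyaluronan receptor CD44 rose (0.50) on its brightest probe and on another (0.33), and differed by -0.19 without passing on a further one. ITGAL, a leukocyte integrin alpha chain, fell (-0.35), a call lost under median centring and without replated replicates 1 or 2 or frozen replicates 1 or 3. Of 19 actin and SRF target genes 4 rose, led by TPM2, a tropomyosin (0.65), TPM4 (0.48), the myosin light chain gene MYL9 (0.44) and CORO1A (0.33), and CNN3 (-0.32) fell, a call lost under median centring and without replated replicates 1 or 2 or frozen replicate 1. CORO1A lost its call without any fresh array, replated replicates 2 or 3, or frozen replicates 1 or 2. COTL1, which binds filamentous actin, rose 1.78-fold (log2 difference 0.83 ± 0.19, adjusted p = 0.0206), a call lost without replated replicates 1 or 2 or frozen replicate 1. ACTA1, skeletal muscle actin, was detected on all 3 frozen arrays and on no replated or fresh array. It was at least 2.08-fold lower in replated cells (adjusted p = 0.00337), and the probe may also bind other actin transcripts.

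**Figure D3:**
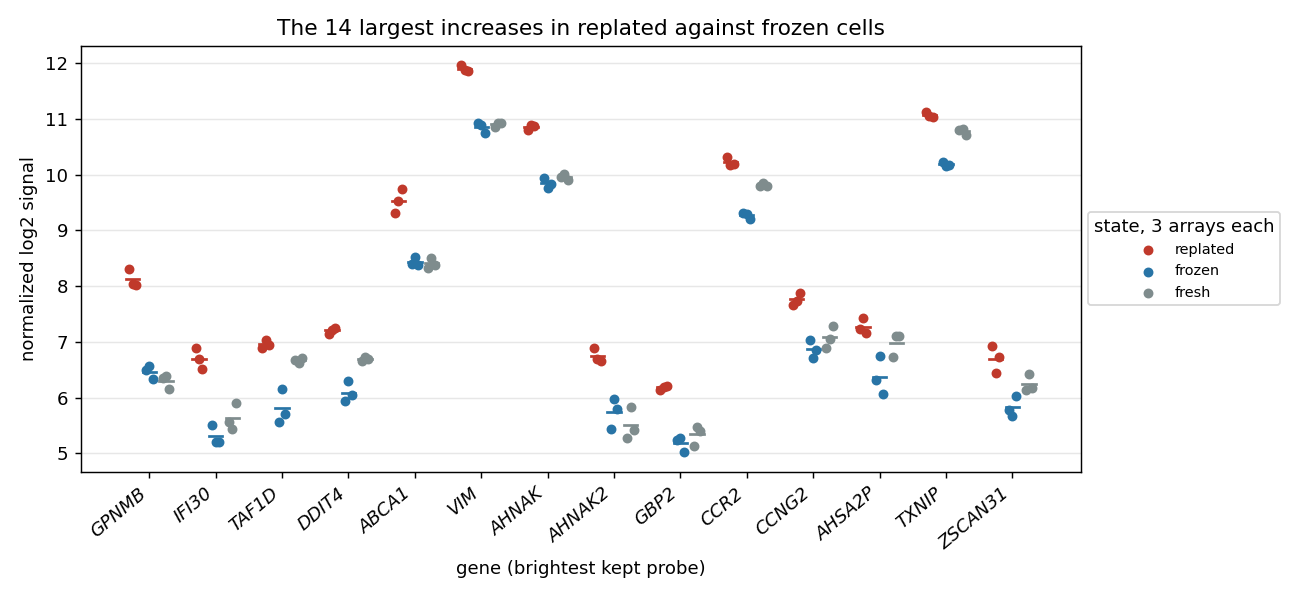
Normalized log2 signal of the 14 largest increases among called genes whose replated and frozen arrays did not overlap. Replated, frozen and fresh arrays run from left to right within each gene, with 1 point per array and a bar at the mean of 3. Replated arrays sit above frozen arrays in every gene by that choice. Fresh arrays lie beside the frozen ones for GPNMB, ABCA1, VIM and AHNAK and between the groups for TAF1D, DDIT4 and CCR2.

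Some genes of lipid export and synthesis rose. ABCA1, the cholesterol exporter induced by LXR receptors (probe ILMN_1766054), had 9.31, 9.53 and 9.74 in replated cells, against 8.39, 8.53 and 8.38 in frozen cells and 8.33, 8.51 and 8.39 in fresh cells. The frozen and fresh arrays shared 1 range and the replated arrays stood above it. ABCA1 rose 2.14-fold (log2 difference 1.09 ± 0.11, adjusted p = 0.000248). Of 15 cholesterol efflux and LXR target genes 3 rose, ABCA1, the lipogenic regulator SREBF1 (0.80) and the desaturase gene SCD (0.58), and 2 fell, PLIN2 (-0.33), a lipid droplet coat protein, and FABP5 (-0.26). The list median was -0.01, and 0.12 under median centring, where 4 rose and 0 fell, and only 1 fell without any one replated or frozen array. Of 17 sterol synthesis and uptake genes 4 rose and 0 fell, namely MSMO1 (0.63), INSIG1 (0.62), LSS (0.44) and SQLE (0.26), with a median of 0.14. Of these 2 rose without replated replicate 3 or frozen replicate 2, 3 rose and 1 other gene fell without frozen replicate 1, and the other LSS probe differed by -0.02. Of 9 fatty acid synthesis genes 3 rose, SREBF1, SCD and ACSS2 (0.30), with a median of 0.18, and ACSS2 lost its call without frozen replicate 3. The other SREBF1 probe differed by 0.38 and did not pass.

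DDIT4, an inhibitor of mTORC1, had 7.15, 7.22 and 7.25 in replated cells, against 5.94, 6.29 and 6.05 in frozen cells and 6.65, 6.74 and 6.69 in fresh cells. Frozen arrays were lowest, replated arrays highest and fresh arrays between them. DDIT4 rose 2.17-fold (log2 difference 1.12 ± 0.089, adjusted p = 6.21e-05). TXNIP, which binds thioredoxin and limits glucose uptake, had 11.13, 11.05 and 11.04 in replated cells, against 10.22, 10.16 and 10.18 in frozen cells and 10.80, 10.82 and 10.72 in fresh cells and rose 1.85-fold (log2 difference 0.89 ± 0.064, adjusted p = 2.72e-05). Of 12 arrestin-domain and energy-sensing genes DDIT4 and TXNIP rose and ARRDC3, a relative of TXNIP, fell (-0.49), with 2 fallen without frozen replicate 1. CCNG2, an unconventional cyclin of resting cells, rose 1.86-fold (log2 difference 0.90 ± 0.12, adjusted p = 0.00143), while its other probes differed by 0.22 and 0.27 and did not pass. CCNG1, its p53-induced relative, rose 1.63-fold (log2 difference 0.70 ± 0.080, adjusted p = 0.000677). TAF1D, which helps RNA polymerase I start transcription and whose transcript also hosts small nucleolar RNAs, had 6.89, 7.04 and 6.94 in replated cells, against 5.55, 6.16 and 5.70 in frozen cells and 6.67, 6.62 and 6.71 in fresh cells and rose 2.22-fold (log2 difference 1.15 ± 0.13, adjusted p = 0.000646). Its other probe differed by 0.14 and did not pass, and the other 2 of 3 tested small nucleolar RNA hosts and long non-coding RNAs did not pass.

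The rest of the largest increases formed no list of their own. GBP2, an interferon-inducible GTPase, had 6.14, 6.19 and 6.22 in replated cells, against 5.25, 5.28 and 5.02 in frozen cells and 5.14, 5.48 and 5.41 in fresh cells and rose 2-fold (log2 difference 1.00 ± 0.10, adjusted p = 0.000307). AHSA2P, a transcribed pseudogene of a co-chaperone (0.89), the zinc finger gene ZSCAN31 (0.87), the microRNA host transcript MIR181A2HG (0.84) and the kinase gene CSNK1G2 (0.80) rose as well. The other ZSCAN31 probe differed by 0.19 and did not pass. FLI1 (0.91) was called higher too, but its replated and frozen arrays overlapped and it was left out of the ranking. Among the 20 largest increases and 20 largest decreases named here, COTL1 was the gene that lost its call in an alternative in which it was tested.

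Some chaperones of the endoplasmic reticulum fell in replated cells. Of 19 chaperone and unfolded protein response genes 8 fell and 0 rose, with a median of -0.25, beside 5.93% of all genes called lower. Under median centring 3 fell and 1 rose with a median of -0.15, and 6 to 8 fell when an array was left out. MANF, a secreted stress protein of this compartment, had 11.84, 11.73 and 11.70 in replated cells, against 12.16, 12.30 and 12.35 in frozen cells and 12.10, 11.95 and 12.32 in fresh cells and fell 1.43-fold (log2 difference -0.51 ± 0.10, adjusted p = 0.00898). The co-chaperone genes DNAJC3 (-0.48), DNAJB11 (-0.45) and SDF2L1 (-0.38), and HYOU1 (-0.37), CRELD2 (-0.32), HSP90B1 (-0.29) and HSPA5, the main chaperone there (-0.25), fell too. XBP1 (-0.04), ATF6 (0.03) and DDIT3 (-0.24) did not pass.

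In the list of integrated stress response and amino acid genes 22 were tested, of which 6 fell and 3 rose, with a median of -0.09. The decreases were the transporter genes SLC7A5 (-0.54) and SLC3A2 (-0.44), which form 1 amino acid carrier, the serine synthesis genes PSPH (-0.43) and PSAT1 (-0.33), the asparagine synthetase gene ASNS (-0.37) and TRIB3 (-0.29). SLC7A5 had 10.01, 10.02 and 10.02 in replated cells, against 10.59, 10.57 and 10.50 in frozen cells and 10.48, 10.43 and 10.43 in fresh cells (log2 difference -0.54 ± 0.061, adjusted p = 0.000646). DDIT4, MTHFD2 (0.37) and CEBPG (0.26) rose and ATF4 did not pass (-0.08). Under median centring 5 rose and 1 fell, and the list median was 0.01, so the direction of this list rested on the scaling. Without replated replicate 3, 1 rose and 4 fell.

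Of 31 ribosome biogenesis and RNA polymerase I genes 7 fell and 1 rose, with a median of -0.18. Over all genes 5.93% were called lower and 7.12% higher. NOLC1, a nucleolar phosphoprotein, had 8.90, 8.83 and 8.85 in replated cells, against 9.27, 9.43 and 9.29 in frozen cells and 9.17, 9.23 and 9.22 in fresh cells and fell 1.38-fold (log2 difference -0.47 ± 0.068, adjusted p = 0.00275), and MRTO4 (-0.34), GAR1 (-0.33), RRP12 (-0.30), NIP7 (-0.28), WDR12 (-0.27) and NOP14 (-0.26) fell while TAF1D rose (1.15). The number that fell was 1 under median centring, 2 without replated replicate 3 or frozen replicate 3 and 3 without replated replicate 1. Of 34 genes of G1, S phase and DNA replication 5 fell and 1 rose, with a median of -0.13, beside the same shares of all genes. CCND1, cyclin D1, had 7.34, 7.16 and 7.13 in replated cells, against 7.83, 7.83 and 7.79 in frozen cells and 7.64, 7.80 and 7.69 in fresh cells and fell 1.53-fold (log2 difference -0.61 ± 0.076, adjusted p = 0.00123). Its partner CDK6 rose (0.28), and CDC25A (-0.36), MCM2 (-0.31), RRM2 (-0.29) and MCM3 (-0.28) fell. Under median centring 1 fell and 1 rose, without replated replicates 1 or 2 or frozen replicate 2 the count was 3 fallen and 0 risen, and without replated replicate 3 or frozen replicate 3 it was 2 fallen and 0 risen.

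Of 33 G2 and mitosis genes 4 rose and 0 fell, with a median of 0.10. Their share called was near the 13.1% of all genes called in either direction, and 7.12% of all genes were called higher. BUB1B, a spindle checkpoint kinase, had 7.37, 7.20 and 7.43 in replated cells, against 6.87, 6.66 and 6.997 in frozen cells and 7.17, 7.24 and 7.28 in fresh cells and rose 1.4-fold (log2 difference 0.49 ± 0.095, adjusted p = 0.00964). CCNB1 (0.42), DLGAP5 (0.31) and BUB1 (0.25) rose as well, but only 1 of the 4 passed without frozen replicate 3 and 2 without fresh replicate 1, replated replicates 1 or 3 or frozen replicate 2. BUB1 lost its call whichever array was left out, and also on the authors' values and with the replicate block. Of 16 histone genes 5 fell, led by H2AC18 (-0.66), H2AC20 (-0.50), H1-2 (-0.45) and H3-3B (-0.38), and histone probes may bind related copies. The median of that list was -0.01, and 2 fell under median centring and 3 without replated replicate 1 or frozen replicate 3.

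**Figure D4:**
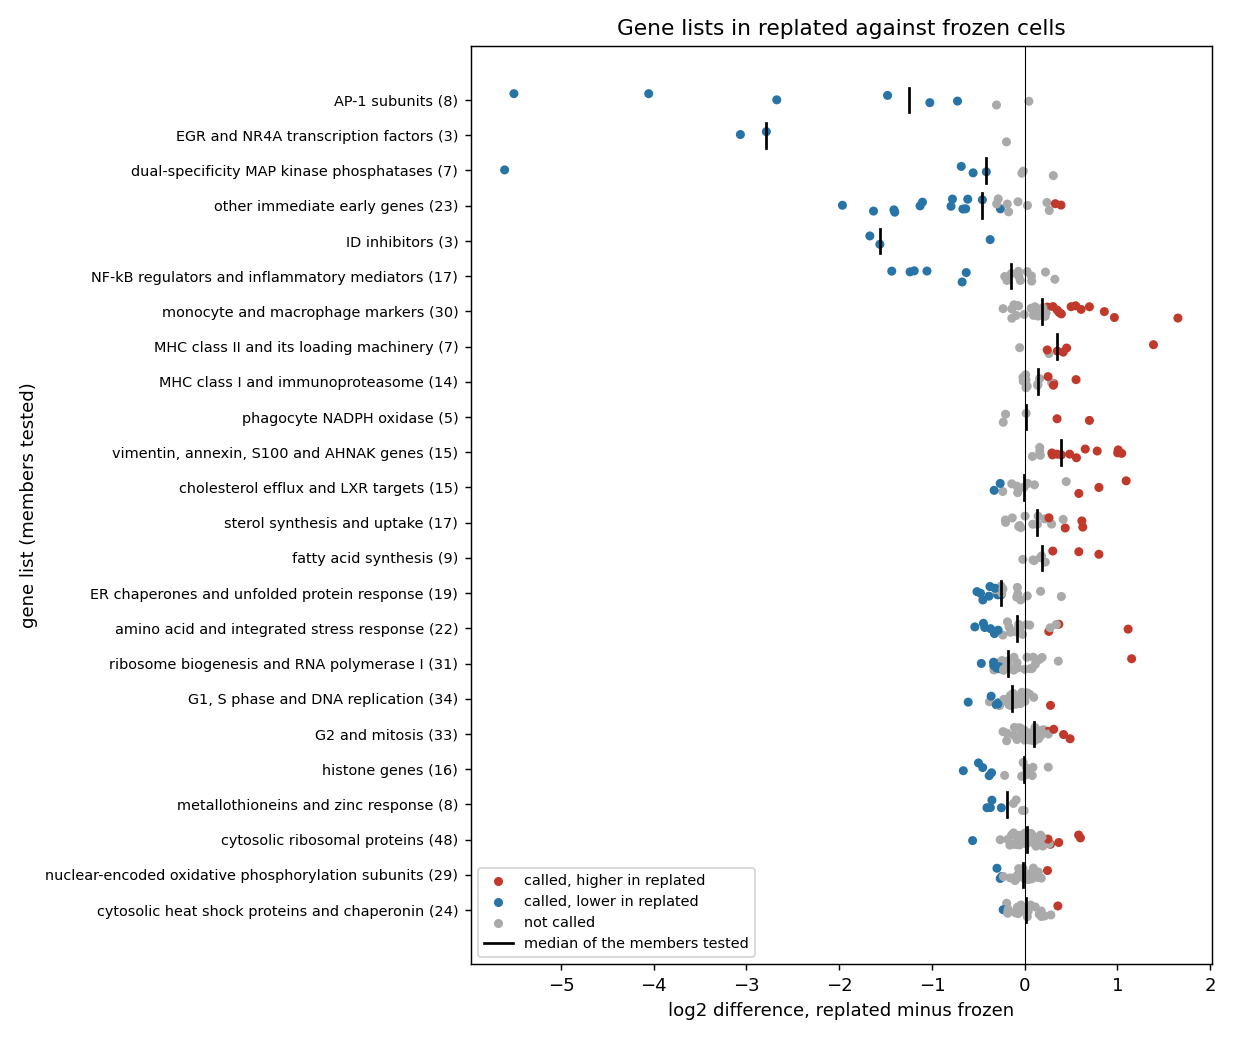
Each point is 1 tested gene of the list named at the left, placed by its log2 difference, replated minus frozen. Red points were called higher and blue points lower in replated cells, grey points were not called, and the black bar is the median of the list. AP-1, EGR and NR4A, phosphatase and ID genes extend to the left, and monocyte, MHC class II and vimentin, annexin, S100 and AHNAK genes to the right.

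RNA-processing transcripts included some of the larger decreases. RPPH1, the RNA subunit of ribonuclease P, had 5.56, 5.54 and 5.50 in replated cells, against 7.23, 6.97 and 7.17 in frozen cells and 5.90, 5.80 and 5.85 in fresh cells. Its frozen arrays were the highest of the series. RPPH1 fell 3.01-fold (log2 difference -1.59 ± 0.078, adjusted p = 1.46e-06), and RNU11, the U11 RNA of the minor spliceosome, fell 2.45-fold (log2 difference -1.29 ± 0.10, adjusted p = 5.12e-05). Of 12 small structural RNAs tested 4 fell and 2 rose, with a median of 0.05. The small nucleolar RNAs SNORD25 (-0.65) and SNORA10 (-0.40) fell, and SNORD14D (0.76) and the signal recognition particle RNA gene RN7SL1 (0.26) rose. Only 1 rose without any one replated array or frozen replicate 2. Whether these probes bound the mature small RNAs or their precursors and host transcripts was not tested.

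Of 12 cold-sensitive and temperature-sensitive RNA regulators 3 rose and 3 fell. CIRBP, a cold-inducible RNA-binding protein, had 10.61, 10.40 and 10.58 in replated cells, against 10.97, 11.05 and 10.98 in frozen cells and 11.13, 11.19 and 10.95 in fresh cells and fell 1.39-fold (log2 difference -0.47 ± 0.084, adjusted p = 0.00648). Its replated arrays were below all other arrays, and the frozen arrays lay among the fresh ones. CLK4, a kinase of splicing factors, rose 1.52-fold (log2 difference 0.60 ± 0.078, adjusted p = 0.00151), and its relative CLK1 (0.37) and the splicing factor gene SRSF1 (0.37) rose while SRSF6 (-0.29) and TRA2A (-0.29) fell. CLK1 lost its call whichever of the 9 arrays was left out, and SRSF1 without replated replicates 1 or 3 or frozen replicates 2 or 3. Under median centring 3 of the 12 rose and 1 fell. Of 24 cytosolic heat shock and chaperonin genes CCT5 rose (0.36) and STIP1 fell (-0.23), and 22 did not pass. Neither was called with the replicate block or without replated replicates 1 or 2 or frozen replicates 2 or 3. STIP1 also lost its call without fresh replicate 2, replated replicate 3 or frozen replicate 1. The same held for STIP1 under median centring and with the 6 replated and frozen arrays alone.

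Of 8 genes tested of metal handling, which were metallothioneins, binders of zinc and copper, with the zinc exporter gene SLC30A1 and the metal-responsive transcription factor gene MTF1, 4 fell and 0 rose, with a median of -0.19. MT1G had 9.75, 9.76 and 9.80 in replated cells, against 10.16, 10.17 and 10.20 in frozen cells and 10.24, 10.24 and 10.15 in fresh cells and fell 1.33-fold (log2 difference -0.41 ± 0.061, adjusted p = 0.00329). MT1X (-0.35), MT2A (-0.25) and SLC30A1 (-0.37) fell too. MT1E (-0.01), MT1F (-0.02), MT1H (-0.12) and MTF1 (-0.09) did not pass, and metallothionein probes may bind more than 1 of these similar genes. Under median centring 1 fell, and the count was 1 without replated replicate 3 and 2 without frozen replicates 2 or 3. Of 15 NRF2, glutathione and thioredoxin genes TXNIP rose and SRXN1 (-0.33) and GCLM (-0.29) fell, both lost under median centring and both without replated replicate 3 or frozen replicates 1 or 2.

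Lysosome genes rose in 4 of 26 tested and fell in 0, with a median of 0.15, beside 7.12% of all genes called higher. TPP1, a lysosomal peptidase, had 10.18, 10.38 and 10.30 in replated cells, against 9.77, 9.62 and 9.87 in frozen cells and 9.87, 9.96 and 9.93 in fresh cells and rose 1.45-fold (log2 difference 0.53 ± 0.082, adjusted p = 0.00356), and the cathepsin genes CTSH (0.37) and CTSA (0.28) and the autophagy receptor gene SQSTM1 (0.29) rose. The count was 2 without fresh replicates 1 or 3 or frozen replicate 2, and also 2 on the authors' processed values. CTSA lost its call without any array but replated replicate 3, and SQSTM1 without any array but frozen replicate 3. Both were also lost on the authors' values, with the replicate block and with the replated and frozen arrays alone. The median differences of 28 interferon-stimulated and 30 glycolysis and hypoxia-responsive genes were 0.00379 and 0.03. IRF9 (0.47) and GBP2 rose and IFIT2 (-0.57) fell among interferon-stimulated genes. EPAS1, which encodes HIF-2 alpha (0.63), and ALDOC (0.27) rose among hypoxia genes, and HK2 (-0.26) fell on its brightest probe but was called higher on another (0.41). ALDOC lost its call without replated replicates 2 or 3 or frozen replicates 2 or 3, and HK2 under median centring and without fresh replicate 2, any replated array or frozen replicates 1 or 3.

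Of 15 BCL2 family and caspase genes 2 rose and 2 fell, and of 13 p53 targets 2 rose and 1 fell, against 13.1% of all genes called. PMAIP1, a pro-apoptotic BH3-only protein gene, had 7.66, 7.44 and 7.85 in replated cells, against 8.28, 8.62 and 8.38 in frozen cells and 8.54, 8.56 and 8.23 in fresh cells and fell 1.71-fold (log2 difference -0.78 ± 0.13, adjusted p = 0.00501), MCL1 fell, and CFLAR (0.47), an inhibitor of death receptor signalling, and BAK1 (0.46) rose. Among the p53 targets CCNG1 and DDB2 (0.44) rose and AEN (-0.35) fell. DDB2 and BAK1 lost their calls without replated replicate 3, BAK1 also without frozen replicate 3, and AEN without frozen replicate 2 and under median centring. MCL1 lost its call under median centring and without replated replicates 1 or 3 or frozen replicates 2 or 3. BHLHE40, a repressor of the circadian clock, fell 1.55-fold (log2 difference -0.63 ± 0.10, adjusted p = 0.00352), and among 12 clock genes CIART was detected on 2 fresh arrays, all 3 replated arrays and no frozen array, at least 1.37-fold higher in replated cells (adjusted p = 0.0371). That call was lost without any one of the 6 replated and frozen arrays.

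Ribosomal protein and oxidative phosphorylation genes were called at shares near the 13.1% of all genes. Of 48 cytosolic ribosomal protein genes 5 rose and 1 fell, with a median of 0.03. RPL7A had 9.34, 9.64 and 9.44 in replated cells, against 8.92, 8.96 and 8.74 in frozen cells and 9.42, 9.38 and 8.96 in fresh cells and rose 1.52-fold (log2 difference 0.60 ± 0.13, adjusted p = 0.014), RPL37 (0.58) rose and RPS7 (-0.56) fell. RPL37 and RPS7 were called the same way on both of their probes, and probes of ribosomal protein genes may bind their pseudogenes. Without an array 2 to 5 rose, the count being 2 without replated replicate 3 or frozen replicate 3 and 3 without replated replicates 1 or 2 or frozen replicate 2. Of 29 oxidative phosphorylation subunits 3 fell, ATP5MC1 (-0.30), NDUFB5 (-0.26) and NDUFA9 (-0.25), and SDHD (0.25) rose. Under median centring 0 fell and 1 rose. When an array was left out 0 to 2 fell and 0 or 1 rose, with 0 fallen without replated replicate 3 and 1 without replated replicates 1 or 2 or any frozen array. Of 13 reference genes B2M rose and 12 did not pass, among them ACTB (0.20 ± 0.069, adjusted p = 0.0874) and GAPDH (0.09 ± 0.067, adjusted p = 0.379). B2M lost its call without fresh replicate 2 or any one of the 6 replated and frozen arrays. It was also lost with the replicate block and with those 6 arrays alone. Other probes of ACTB (0.33, adjusted p = 0.0110) and GAPDH (0.29, adjusted p = 0.0281) were called higher. Of 4 osmotic stress genes SGK1 fell, and of 8 membrane repair genes tested ANXA1 and ANXA2 rose. ANXA1 lost its call without replated replicates 2 or 3 or frozen replicates 1 or 3. The aquaporin genes AQP1, AQP3 and AQP9 did not meet the detection rule and were not tested.

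Of the 140 called genes named by rule, 42 had 46 other probes among those kept. Of these probes 23 were called in the same direction, 20 had the same sign without passing and 3, of CD44, HK2 and LSS, had the opposite sign.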

How the data were processed

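Transcripts of THP-1 cells were measured on 9 Illumina bead arrays, 3 for each of 3 states. Per the labels' protocols, a QIAGEN miRNeasy kit gave total RNA and an Ambion MessageAmp kit biotinylated cRNA. Sample titles give the groups and replicate numbers. The main deposited table holds a linear intensity for each probe, not normalized per the file headers. Its detection column is headed as a p value, but within each array it rises or stays level with rising intensity (0 exceptions). The authors' computation of this score is not described in any label or header, and 1 minus the score was used as the detection p. A second deposited table holds intensity processed by the authors, with a rank correlation of 1 with the signal of the same array and column medians of 5.04 to 5.06. Its columns point to background correction and quantile normalization, and its software was not given in the sources used here. The files give no slide or scan.

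Background was corrected with limma 3.58.1 (R 4.3.3) by neqc, which takes negative-control parameters from the detection p, adds an offset of 16 and quantile-normalizes all 9 arrays before log2. Probes with a detection score above 0.95 on at least 3 of the 6 replated and frozen arrays were fitted in 1 linear model over 9 arrays (lmFit and eBayes, residual df 6, prior df 4.59), with Benjamini-Hochberg adjustment over the 17361 probes kept and probes under an adjusted p of 0.05 were called. A platform annotation gave 27578 probes 1 symbol and 13 several and did not list 21212, and 27541 symbols were updated by Entrez gene ID, 12 by accession and 25 kept, on the GRCh38.p14 gene table. Probes without 1 symbol were tested and left unnamed. A gene was represented by its brightest kept probe. For a probe that no array of a state detected, the dimmest detected signal stood in for that state and the fold is a minimum. The method was tested on simulated data.

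The comparison, the 43 gene lists (854 genes, 659 tested) and the motifs were chosen with earlier results of these data known, and lists are described by counts and medians without a test. The naming rule took the 20 largest increases and 20 largest decreases among called genes with no overlap between the 2 states, up to 4 called genes of each list, and EGR1, FOS, DUSP1, ID1, GPNMB, LYZ, CD14, MYC, CIRBP, ACTB and GAPDH, which gave 144 genes. Other list members named were chosen after their values were seen. The alternatives changed the offset, the background correction, the scaling (median centring), the source (the authors' values), the filter, the design (a replicate block, only the 6 arrays, array weights), the prior and the threshold, and left out each array in turn.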

Additional observations from a re-analysis of the deposited data

How the results depend on the processing

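The 2189 called probes became 3296 with a trend and robust prior, 655 at an adjusted p under 0.01 (345 higher, 310 lower) and 293 when a 1.5-fold change was also required (154 higher, 139 lower). Leaving out 1 array gave 1078 to 2091. In the other alternatives the count lay between 1816, with no filter on detection, and 2973, with an offset of 50, and was 2041 on the authors' values, of which 2022 were among the 2189. Median centring gave 2468 with 84.6% of them higher, against 53.8%, so the balance of small increases and decreases rests on the scaling. The 179 called list genes (86 higher, 93 lower) became 93 at an adjusted p under 0.01, 63 with a 1.5-fold change and 117 to 171 without an array, the lowest without replated replicate 3, and 166 under median centring (117 higher, 49 lower). Same-numbered replated and frozen arrays did not deviate together (r = -0.0523, -0.0226 and -0.0170), and with the replicate number as a block 1828 probes were called (995 higher, 833 lower). Of the 144 named genes 140 were called, 114 under median centring, 122 with the replicate block and 103 to 132 without an array. Of the 140, 85 were called in every alternative in which they were tested and 55 lost the call in at least 1, 15 of them only when an array was left out, while 0 of 144 changed sign. Of the 4 named genes not called, 2, MYC and ACTB, were called in some alternative. The distance between replated and frozen arrays beyond that within them was 0.0776 to 0.0973 under the 4 other normalizations and with the 6 arrays alone, and 0.0831 to 0.0984 without an array, each with an exact permutation p of 0.1. Against all 27305 promoters of the table in place of those of tested genes, the background shares were 1.98% for the full cAMP response element, 25.0% for its core, 7.76% for AP-1, 9.28% for EGR, 5.72% for NF-kB, 0.381% for CLEAR, 7.43% for E-box, 15.4% for CHR and 35.7% for CCAAT sequences. Stricter thresholds were applied to counts alone.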

Other observations

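The genes in these paragraphs were chosen after their values were seen. They are some of the 81 called genes at least 1.5-fold higher and the 85 at least 1.5-fold lower in replated than in frozen cells. SMAD7, an inhibitor of TGF-beta signalling, had 7.24, 7.14 and 7.28 in replated cells, against 8.23, 8.36 and 8.32 in frozen cells and 8.08, 8.14 and 8.002 in fresh cells and fell 2.13-fold (log2 difference -1.09 ± 0.071, adjusted p = 1.27e-05). TSC22D3, a glucocorticoid-induced leucine zipper gene, fell 2.13-fold (log2 difference -1.09 ± 0.13, adjusted p = 0.000707). SPRY4, an inhibitor of receptor tyrosine kinase signalling (-0.95), RGS16 (-0.94) and RGS2 (-0.85), which switch off G proteins, and NAB2, a repressor of EGR1 (-0.61), had lower log2 levels in replated cells and were called. HBEGF, a growth factor that binds the EGF receptor (-0.89), was called as well.

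Surface receptor genes outside the lists were called in both directions. CD93, a C-type lectin-like receptor, had 9.82, 9.85 and 9.91 in replated cells, against 9.18, 8.92 and 9.16 in frozen cells and 9.05, 9.16 and 9.25 in fresh cells and rose 1.71-fold (log2 difference 0.77 ± 0.087, adjusted p = 0.000646). THBD, which encodes thrombomodulin, rose 1.63-fold (log2 difference 0.71 ± 0.13, adjusted p = 0.00731), and CD209, the receptor DC-SIGN, rose 1.57-fold (log2 difference 0.65 ± 0.075, adjusted p = 0.000752). IL21R, the interleukin-21 receptor gene, fell 2.08-fold (log2 difference -1.06 ± 0.088, adjusted p = 7.85e-05).

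By annotation, 36 genes of the small nucleolar RNA biotype were tested, of which 2 rose and 10 fell, with a median log2 difference of -0.08 and values between -1.16 (SNORD21) and 0.76 (SNORD14D). Of 106 transcribed pseudogenes 11 rose and 1 fell, and of 117 long non-coding RNAs 9 rose and 7 fell. Of 312 genes with ZNF symbols 28 rose and 14 fell, of 205 solute carriers with SLC symbols 11 rose and 22 fell, and of 56 RAB GTPases 7 rose and 1 fell, beside 759 and 632 of all 10657 genes. Of 3467 probes without a gene name 385 were called, 190 higher and 195 lower in replated cells.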
